A study of Rattus norvegicus with 6 samples.

Results

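Transforming growth factor beta (TGF-beta) signalling was followed through 9 genes in regenerated sciatic nerve of the rat: the 3 ligands Tgfb1, Tgfb2 and Tgfb3, the latent TGF-beta binding proteins Ltbp1 and Ltbp2, the receptors Tgfbr1, Tgfbr2 and Tgfbr3, and the inhibitory target Smad7. They were taken from the count table by symbol, and each of the 9 symbols had a single entry among 23091 genes. All 9 passed the filter on low counts, which left 13999 genes to be tested. Messenger RNA was sequenced from whole nerve of male, wild-type Sprague-Dawley (SD) rats that had all received a sciatic nerve defect. In the treated group (3 libraries, conduit 1 to conduit 3) the defect was implanted with GDNF-Gel/HA-Mg, a nerve conduit named for glial cell line-derived neurotrophic factor, and in the NC group (3 libraries, NC 1 to NC 3) the wound was closed with no treatment. The labels give neither the age of the rats nor the time after surgery, and they do not say whether each library came from a separate animal. A p-value here therefore speaks of the spread among these libraries alone, which may not be the spread among animals.

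TGF-beta is secreted in a latent form, held by its own propeptide and usually bound through a latent TGF-beta binding protein to the extracellular matrix. Once released, a ligand binds the type II receptor Tgfbr2, which phosphorylates the type I receptor Tgfbr1, and Tgfbr1 phosphorylates Smad2 and Smad3, which enter the nucleus with Smad4. In injured peripheral nerve the ligands are known to come from macrophages, fibroblasts and Schwann cells, and the pathway is known for its parts in scar collagen and in the reprogramming of Schwann cells.

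Total counts ran between 16120518 and 18491379 in the conduit libraries and between 15897850 and 17990057 in the NC libraries. Haemoglobin genes took 8.08% to 14.8% of the counts in the conduit libraries and 1.02% to 25.2% in the NC libraries. Their 95% Wilson intervals, for counting error alone, spanned no more than 0.0401 percentage points. All 7 listed Schwann lineage markers had counts in every library, among them Sox10 and Mbp. Counts of the 9 genes ran between 106 and 12389 in a library. Levels are given in CPM, a normalised read count: the count over the scaled library size, times a constant. No transcript lengths were used, so levels of different genes are not set against each other.

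None of the 9 genes passed the test between conduit and NC, while libraries of a group differed by up to 10.5-fold (Ltbp2 in NC). The promoters of the genes with the widest and the narrowest spread over the libraries are shown with that of Ltbp1, the near relative of the widest. Each window holds 250 bases before to 50 bases after the start of the gene in RefSeq, build GRCr8. It is printed 5′ to 3′ on the strand of the gene, and capitals mark CAGAC, the letters searched for as a Smad-binding element, on either strand (GTCTG on the opposite one). The windows lie at chr6:110257249-110257548 (minus strand) for Ltbp2, at chr6:26177252-26177551 (minus strand) for Ltbp1, at chr6:111456897-111457196 (minus strand) for Tgfb3 and at chr8:124761420-124761719 (minus strand) for Tgfbr2.
Ltbp2: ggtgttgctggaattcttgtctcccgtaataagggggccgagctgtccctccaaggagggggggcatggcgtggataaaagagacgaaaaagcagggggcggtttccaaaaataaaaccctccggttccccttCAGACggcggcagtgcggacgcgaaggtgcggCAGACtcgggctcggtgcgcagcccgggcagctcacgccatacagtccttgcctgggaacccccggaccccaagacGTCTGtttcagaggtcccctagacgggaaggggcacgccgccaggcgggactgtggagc
Ltbp1: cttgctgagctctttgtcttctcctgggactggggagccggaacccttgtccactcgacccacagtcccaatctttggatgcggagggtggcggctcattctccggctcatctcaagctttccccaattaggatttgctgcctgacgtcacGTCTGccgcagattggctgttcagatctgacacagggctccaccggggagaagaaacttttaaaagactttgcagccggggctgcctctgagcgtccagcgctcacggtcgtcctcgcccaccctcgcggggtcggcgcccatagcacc
Tgfb3: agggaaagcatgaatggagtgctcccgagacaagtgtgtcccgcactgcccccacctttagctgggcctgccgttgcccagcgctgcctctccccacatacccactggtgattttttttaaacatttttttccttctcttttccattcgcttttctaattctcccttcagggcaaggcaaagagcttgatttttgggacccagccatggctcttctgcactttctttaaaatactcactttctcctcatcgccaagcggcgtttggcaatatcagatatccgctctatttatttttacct
Tgfbr2: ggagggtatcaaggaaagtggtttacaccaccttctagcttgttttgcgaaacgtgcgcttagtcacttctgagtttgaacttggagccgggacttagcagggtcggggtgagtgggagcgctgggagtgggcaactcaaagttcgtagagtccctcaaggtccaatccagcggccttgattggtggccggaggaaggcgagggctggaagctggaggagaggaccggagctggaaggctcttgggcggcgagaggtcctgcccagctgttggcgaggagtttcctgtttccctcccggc
The Ltbp2 window held 3 matches and the Ltbp1 window 1, and the windows of the other 7 genes held none. Of all 33469 promoter windows, 50.1% held at least 1 match, so the letters alone do not mark a Smad target. GGGCGG, the GC box bound by Sp1, was found on either strand in the windows of Ltbp2, Tgfbr1, Tgfbr2, Tgfbr3 and Smad7 (5 of 9), against 33.1% of all windows. The AP-1 letters TGANTCA (7.33% of all windows) and the TATA letters TATAAA (14.2% of all windows) were in none of the 9 windows. A match is a description of the letters, and these windows were not tested for binding.

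The ligands differed from each other in how far they varied. Tgfb1, the ligand made by macrophages and many other cells, stood at 72.5, 63.7 and 52.6 CPM in conduit 1, conduit 2 and conduit 3, against 60.3, 46.3 and 53.5 CPM in NC 1 to NC 3. The groups overlapped, with conduit 3 below 2 of the NC libraries. Tgfb1 averaged 63.0 ± 9.99 CPM with the conduit and 53.4 ± 6.99 CPM in NC (SD, n = 3 each), a log2 fold change of 0.24 ± 0.17 (SE) by edgeR's quasi-likelihood test, with a Benjamini-Hochberg adjusted p of 1.0. Its approximate 95% interval ran between -0.17 and 0.65, so a fold change above 1.57 lay outside it. Here and below the tissue was taken whole, and fewer cells of a type and less RNA per cell cannot be told apart.

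Tgfb2, a ligand best known from development, stood at 26.8, 27.9 and 22.7 CPM with the conduit and at 28.1, 17.3 and 21.3 CPM in NC. The highest and the lowest library were both of the NC group. Its mean was 25.8 ± 2.72 CPM with the conduit and 22.2 ± 5.47 CPM in NC (SD, n = 3 each), with a log2 fold change of 0.21 ± 0.20 (edgeR adjusted p 1.0).

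Tgfb3, the ligand associated with less scarring in wounds, varied most of the ligands. It stood at 61.8, 103 and 40.9 CPM in conduit 1, conduit 2 and conduit 3, against 131, 38.8 and 42.4 CPM in NC 1 to NC 3. One library in each group, conduit 2 and NC 1, lay far above the others, and the whole range was 3.37-fold. Its mean was 68.4 ± 31.4 CPM with the conduit and 70.6 ± 52.1 CPM in NC (SD, n = 3 each), with a log2 fold change of -0.05 ± 0.57 (edgeR adjusted p 1.0). That value was 0.77 without NC 1, 0.22 without conduit 3 and 0.03 without conduit 1. It was -0.46 without conduit 2, -0.34 without NC 2 and -0.32 without NC 3, so its direction depended on which library was left out. The 95% interval, -1.45 to 1.35, did not exclude a 2.55-fold higher level with the conduit.

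The latent binding proteins differed in their spread. Ltbp1, which tethers latent TGF-beta to the matrix, stood at 175, 178 and 117 CPM with the conduit and at 141, 88.3 and 149 CPM in NC. Conduit 1 and conduit 2 lay above all NC libraries, and conduit 3 lay below 2 of them. It averaged 157 ± 34.4 CPM with the conduit and 126 ± 32.9 CPM in NC (SD, n = 3 each), with a log2 fold change of 0.31 ± 0.26 (edgeR adjusted p 1.0).

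Ltbp2, a member of the same family that does not bind latent TGF-beta and is known for its place on elastic fibres, had the widest range of the 9 genes, 10.5-fold. It stood at 75.5, 59.7 and 16.8 CPM in conduit 1, conduit 2 and conduit 3, against 80.1, 24.7 and 7.66 CPM in NC 1 to NC 3. Conduit 1, conduit 2 and NC 1 were high, and conduit 3, NC 2 and NC 3 were low. The mean was 50.7 ± 30.4 CPM with the conduit and 37.5 ± 37.9 CPM in NC (SD, n = 3 each), with a log2 fold change of 0.43 ± 0.90 (edgeR adjusted p 1.0). Without NC 1 the value was 1.66, and without NC 3 it was -0.06, neither past the threshold. The SD of its log2 CPM over the 6 libraries, 1.36, was above that of 95.8% of the genes tested.

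The steadiest of the 9 genes was a receptor. Tgfbr2, the type II receptor that binds the ligand, stood at 699.9, 617 and 629 CPM with the conduit and at 643, 659 and 642 CPM in NC. All 6 libraries lay within a 1.14-fold range. Its mean was 648.5 ± 44.9 CPM with the conduit and 648.2 ± 9.28 CPM in NC (SD, n = 3 each), with a log2 fold change of 0.00 ± 0.14 (edgeR adjusted p 1.0). The 95% interval ran between -0.34 and 0.34, so fold changes above 1.27 or below 0.789 lay outside it. The SD of its log2 CPM over the 6 libraries was 0.063, and 1.36% of the genes tested had a lower one. Genes with many counts have less counting error, but of 182 genes whose log2 CPM averaged 9 or more, 1 had a lower SD than Tgfbr2. This comparison was chosen after the values were seen and is a description.

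Tgfbr1, the type I receptor whose kinase acts on Smad2 and Smad3, stood at 111, 69.8 and 105 CPM with the conduit and at 90.8, 117 and 55.9 CPM in NC. Conduit 1, conduit 3 and NC 2 were the 3 highest libraries, and conduit 2 and NC 3 the 2 lowest. Its mean was 95.3 ± 22.3 CPM with the conduit and 87.9 ± 30.6 CPM in NC (SD, n = 3 each), with a log2 fold change of 0.12 ± 0.31 (edgeR adjusted p 1.0). Without NC 3, its lowest library, the value was -0.12.

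Tgfbr3, the co-receptor betaglycan that presents ligand to the type II receptor, stood at 292, 192 and 291 CPM with the conduit and at 222, 311 and 230 CPM in NC. The same 3 libraries as for Tgfbr1, conduit 1, conduit 3 and NC 2, were the highest. Its mean was 258 ± 57.1 CPM with the conduit and 254 ± 49.4 CPM in NC (SD, n = 3 each), with a log2 fold change of 0.02 ± 0.23 (edgeR adjusted p 1.0).

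Smad7, an inhibitory Smad that TGF-beta induces and that blocks Tgfbr1 in a feedback loop, stood at 12.5, 10.2 and 11.6 CPM with the conduit and at 13.2, 11.0 and 14.5 CPM in NC. The groups overlapped, since NC 2 lay below 2 of the conduit libraries. It averaged 11.4 ± 1.17 CPM with the conduit and 12.9 ± 1.77 CPM in NC (SD, n = 3 each), with a log2 fold change of -0.18 ± 0.17 (edgeR adjusted p 1.0). The 95% interval ran between -0.59 and 0.23, so a level below 0.663-fold of NC lay outside it.

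**Figure D1:**
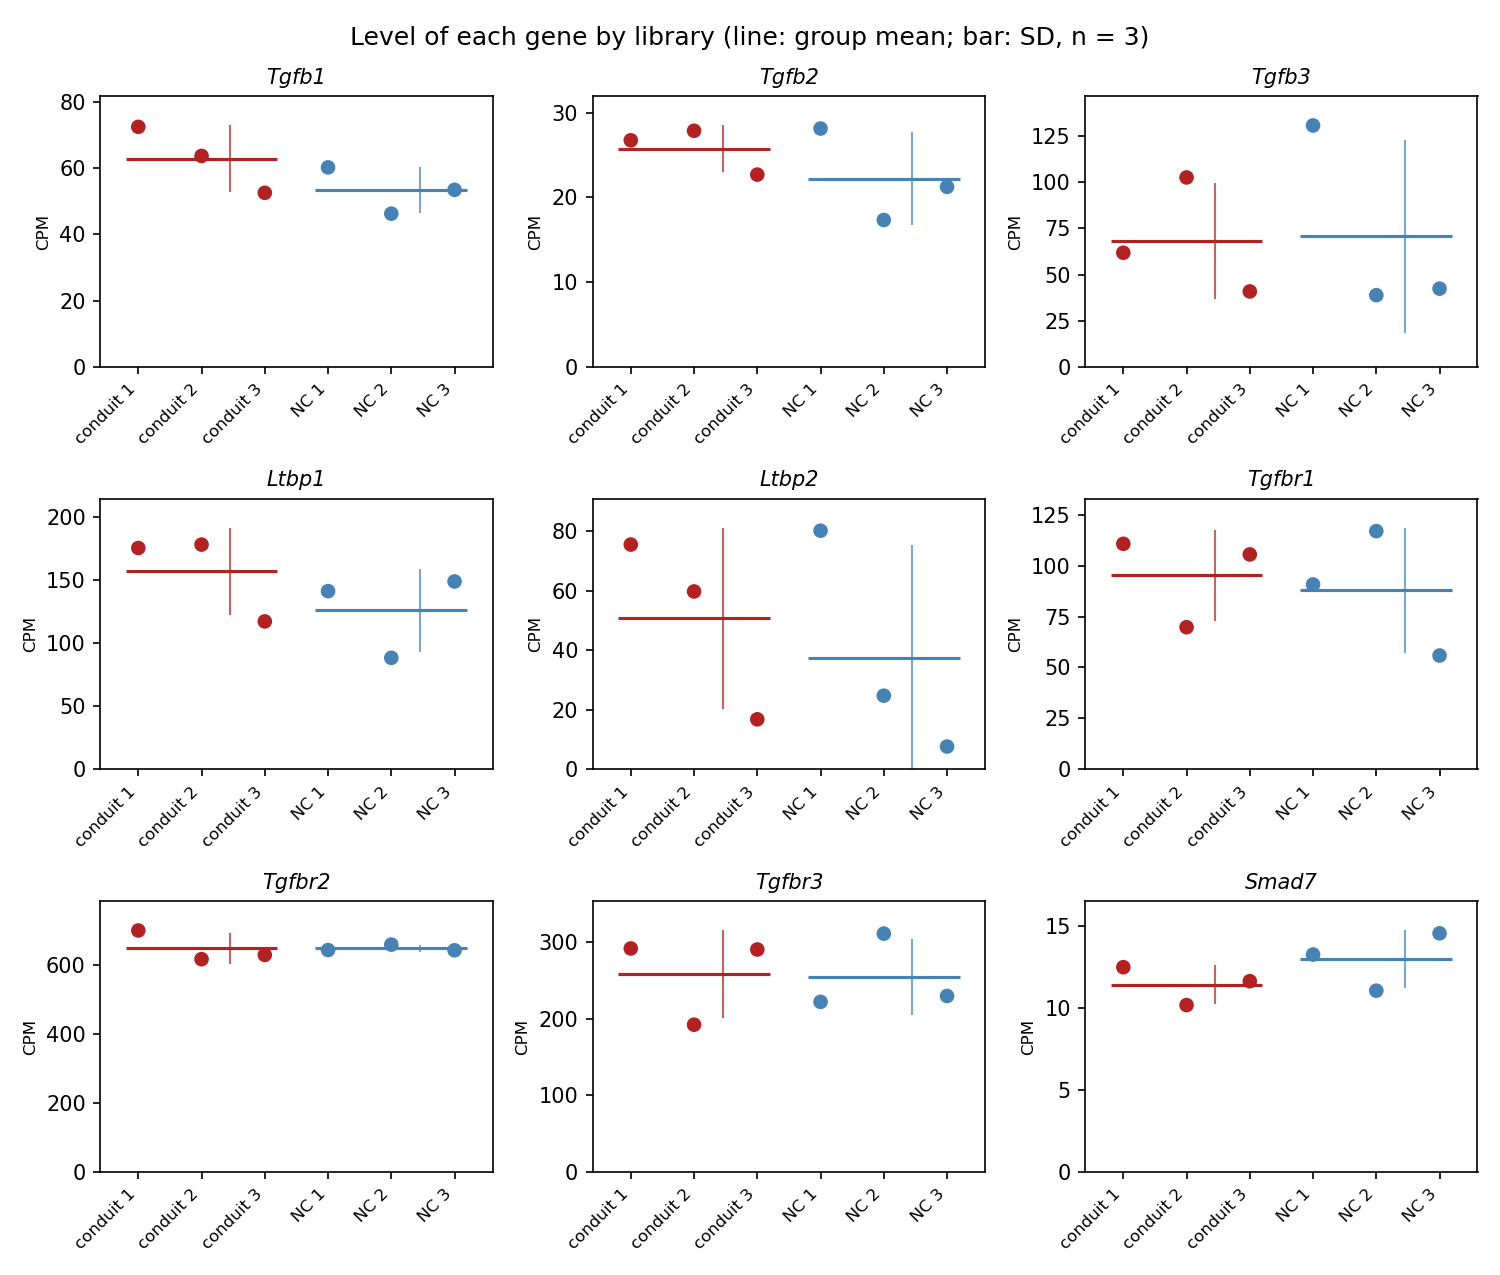
CPM (vertical axis, from 0) of each of the 9 genes in the 3 conduit libraries (red) and the 3 NC libraries (blue); horizontal lines are group means, and vertical bars are 1 SD (n = 3), ending at 0 for Ltbp2 in NC. The Tgfbr2 points lie within a 1.14-fold range, while those of Ltbp2 span 10.5-fold with high and low libraries in both groups.

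Across the 9 genes, edgeR called 0 higher and 0 lower with the conduit, as it did over all 13999 genes (0% called, 241 genes at an unadjusted p under 0.05, or 1.72%). DESeq2 called 11 of all genes (0.0786%) and limma-voom 0, with none of the 9 genes among them. The unadjusted p ran between 0.206 for Tgfb1 and 0.996 for Tgfbr2. The groups overlapped in all 9 genes, where 5.69% of all genes tested had groups apart. Of the 9 log2 fold changes 7 were positive and 2 negative, with a median of 0.12, beside 47.0% positive and a median of -0.01 over all genes tested. These genes share libraries, so their signs are not independent of each other.

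**Figure D2:**
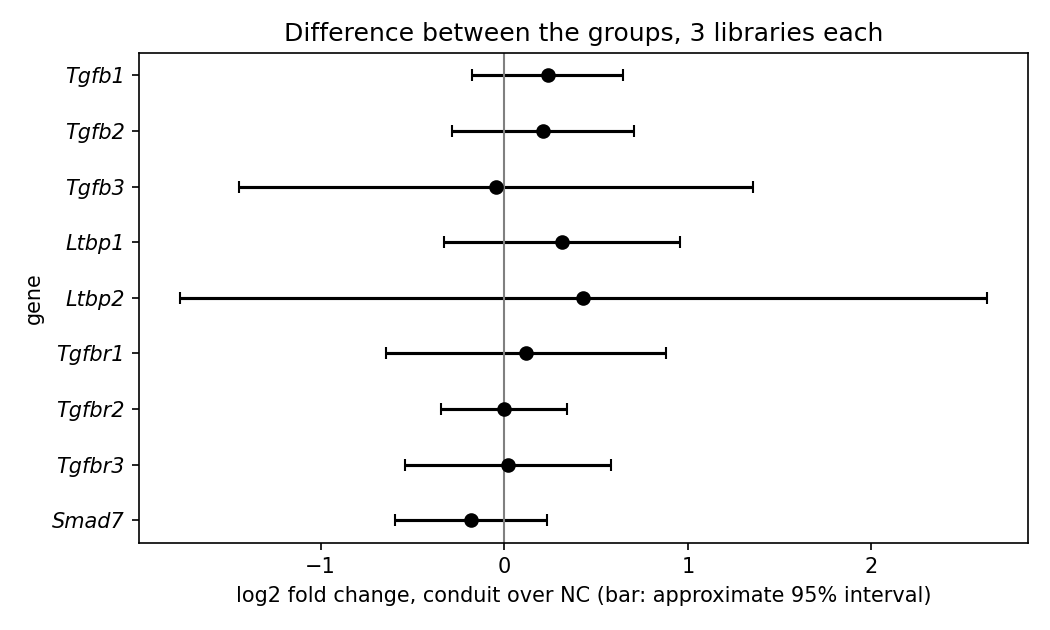
Log2 fold change of conduit over NC (horizontal axis) for each gene, with approximate 95% intervals from edgeR (3 libraries a group). All 9 intervals include 0; that of Tgfbr2 ends at -0.34 and 0.34, and that of Ltbp2 at -1.77 and 2.63.

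Ratios between 2 genes of a library do not depend on how the library is scaled, and 6 were compared between the groups. The log2 ratio of Smad7 to Tgfb1 counts was -2.54, -2.65 and -2.18 in the conduit libraries and -2.18, -2.07 and -1.88 in the NC libraries. Conduit 3 (-2.176) lay just above NC 1 (-2.185), so the groups overlapped narrowly. The mean was -2.45 ± 0.25 with the conduit and -2.04 ± 0.15 in NC (SD, n = 3 each), a difference of -0.41 in the log2 ratio. A two-sided exact permutation test over the libraries gave p 0.2, and 1.0 after Benjamini-Hochberg adjustment over the 6 ratios, where 3 against 3 libraries cannot give less than 0.1. The log2 ratio of Tgfb3 to Tgfb1 differed by -0.145 (exact permutation p 0.7) and that of Tgfb2 to Tgfb1 by 0.0008 (exact permutation p 1.0). Tgfbr2 to Tgfbr1 differed by -0.15 (exact permutation p 0.7), Tgfbr3 to Tgfbr1 by -0.14 (exact permutation p 0.9) and Ltbp2 to Ltbp1 by 0.44 (exact permutation p 0.8). In NC 3 the log2 ratio of Tgfbr3 to Tgfbr1 was 2.04, while the other 5 libraries lay between 1.29 and 1.46, so the co-receptor and the type I receptor kept nearly the same proportion in all libraries but that one.

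Several of the genes shared their highest or lowest library. NC 2 was the lowest library for all 3 ligands and for Ltbp1, and NC 1 was the highest for Tgfb2, Tgfb3 and Ltbp2. Markers of myelin varied far more: the summed level of 7 markers stood at 14710, 868.5 and 17960 CPM in conduit 1, conduit 2 and conduit 3, against 885.2, 36030 and 2544 CPM in NC 1 to NC 3. Tgfb3 was highest in NC 1 and conduit 2, the 2 libraries lowest in myelin markers, and lowest in NC 2, the library highest in them. NC 3 did not follow that order: its myelin markers were the next lowest after those of NC 1 and conduit 2, and its Tgfb3 level of 42.4 CPM was near that of NC 2, 38.8 CPM. Tgfbr1 and Tgfbr3 were both highest in conduit 1, conduit 3 and NC 2, the 3 libraries highest in myelin markers and also in perineurial markers. The 7 Schwann lineage markers, 2 of which are also myelin markers, had the same order of libraries, with a summed level between 1535 and 14770 CPM in the conduit libraries and between 1824 and 28600 CPM in the NC libraries. Their part in the levels of these genes was not tested.

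The 7 fibroblast markers, which include collagen genes, summed to 8848 to 13580 CPM in the conduit libraries and 12390 to 14690 CPM in the NC libraries, a 1.66-fold range. NC 1 and conduit 2 were highest in this sum, as they were for Tgfb3, and conduit 3 was lowest. Those libraries were also the highest for Col1a1, Col1a2, Pi16 and Pdgfra, but not for Dcn, Lum and Dpt. Dcn was highest in NC 2 and Dpt in NC 3. The 7 monocyte and macrophage markers summed to 835.8 to 1182 CPM with the conduit and 779.9 to 1423 CPM in NC. Both this sum and that of the 5 endothelial markers in the table were lowest in NC 2. The macrophage marker Cd68 differed from its sum, being lowest in NC 1 and second highest in NC 2. Tgfbr1 and Ltbp2 were lowest in NC 3, the library highest in red cell markers. These, 6 of 9 listed symbols being in the table, summed to 76820 to 156000 CPM with the conduit and to 10240, 9471 and 330500 CPM in NC 1, NC 2 and NC 3. The 5 adipocyte markers were also highest in NC 3, at 7356 CPM. Skeletal muscle markers, 6 of 7 in the table, summed to between 73.5 and 7268 CPM with the conduit and between 25.1 and 1169 CPM in NC. Perineurial markers, 4 of 5 in the table with Lypd2 at 0 in every library, summed to 1077 to 3825 CPM with the conduit and 1100 to 3199 CPM in NC. The 5 neutrophil markers summed to 176 to 327.8 CPM with the conduit and 31.0 to 293.9 CPM in NC, and the 5 T and NK cell markers to 12.2 to 34.1 CPM with the conduit and 9.71 to 20.2 CPM in NC. The sum of the T and NK cell markers had the same order of libraries as Ltbp1, with conduit 2 highest and NC 2 lowest. Of the single markers Cd2 had that order, while Cd3d, Cd3e, Cd3g and Nkg7 had others, Cd3e being highest in NC 3. This likeness was picked out among many lists and genes and was not tested. The sum of the pericyte and smooth muscle markers varied least of these sums, between 1024 and 1390 CPM with the conduit and between 1097 and 1375 CPM in NC. With library scaling that left out red cell, muscle and adipocyte markers, the log2 fold changes of the 9 genes moved by less than 0.01. That setting changes only the scaling shared by all genes of a library, so the part of tissue content in these levels was not tested.

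**Figure D3:**
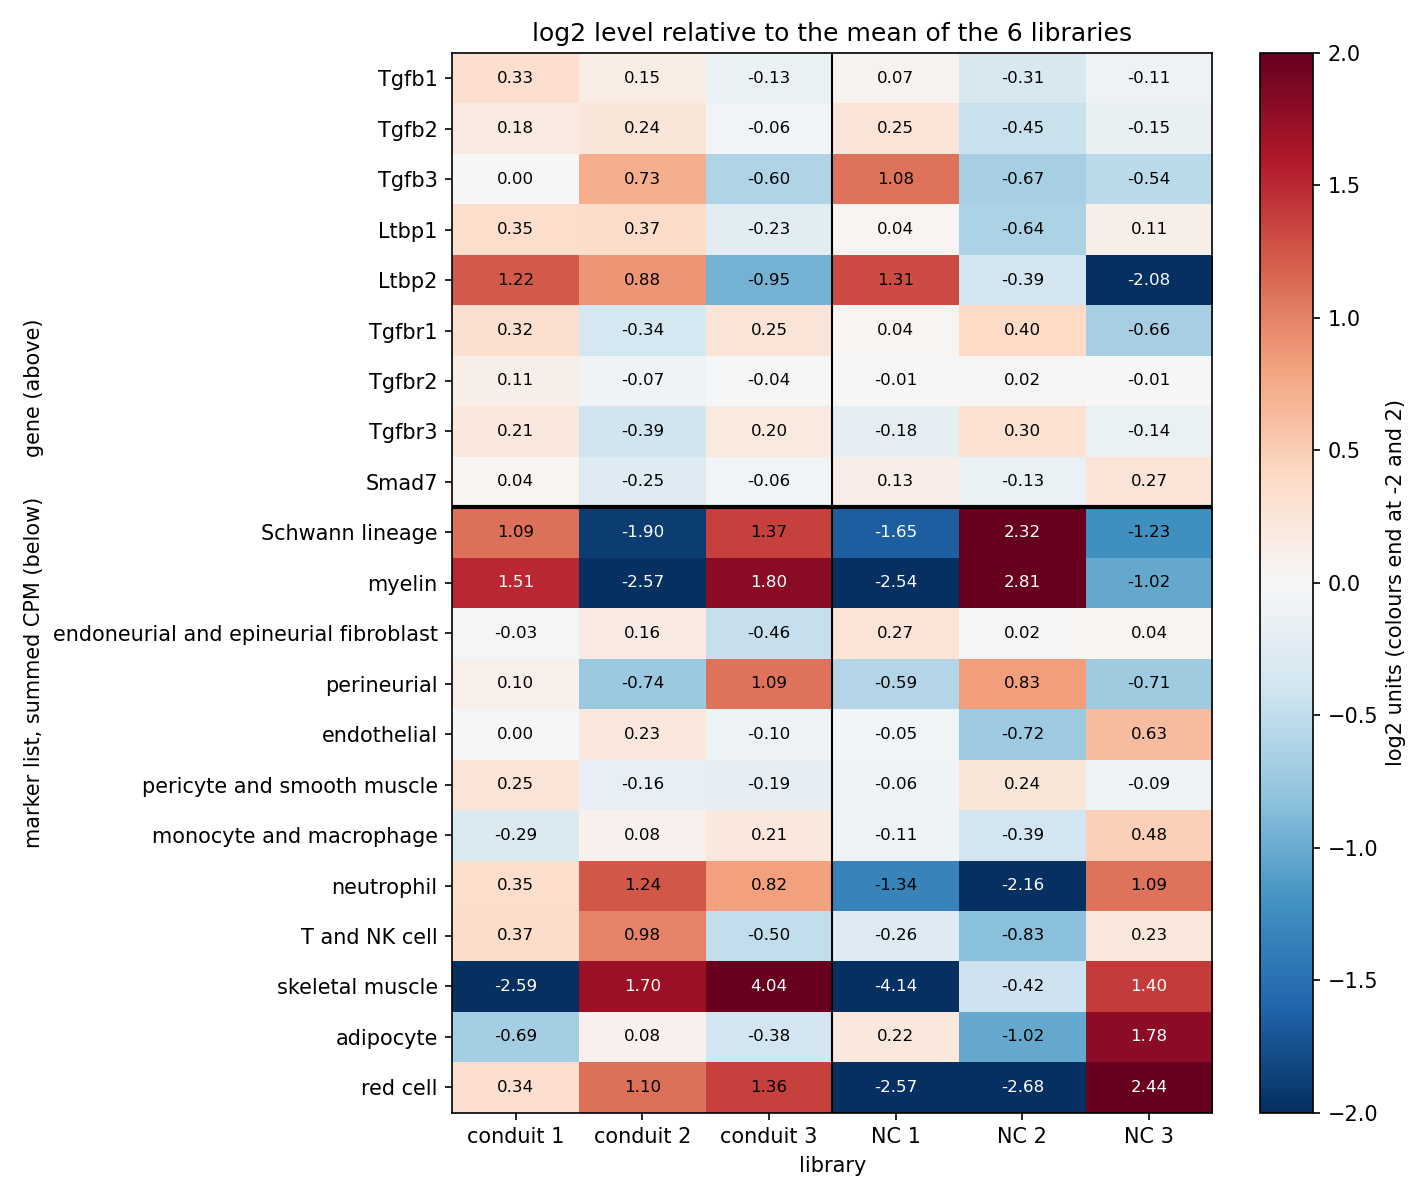
Log2 level of each of the 9 genes (above the heavy line) and log2 of the summed CPM of each marker list (below it) in each library, relative to the mean of the 6 libraries. Columns are libraries, conduit to the left of NC. Tgfb3 is at 1.08 in NC 1 and 0.73 in conduit 2, where myelin markers are at -2.54 and -2.57, and Tgfbr2 stays between -0.07 and 0.11 in all libraries.

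Genes with the library pattern most like that of each ligand were taken by Pearson's correlation of log2 CPM over the 6 libraries among 11254 genes. Nearest to Tgfb1 were Hic1 (r 0.98), Abca7 (r 0.97) and Spint2 (r 0.97). Nearest to Tgfb2 were Tmem119 (r 0.996), Cfi (r 0.99) and Dtx3l (r 0.99). For Tgfb3 they were Agrn (r 0.99), which encodes agrin, Plk2 (r 0.99) and Plxna4 (r 0.99), a receptor for semaphorins. Agrn stood at 151, 190 and 116 CPM with the conduit and at 236, 108 and 121 CPM in NC, which is the order of the libraries for Tgfb3. With 6 libraries many genes correlate highly: 14, 30 and 90 genes had an r above 0.95 with Tgfb1, Tgfb2 and Tgfb3, and all points share the same 6 libraries.

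The wider pathway was described through 7 lists of 86 genes, 84 of which were tested. No gene was called by edgeR in any list (0% of all genes tested were), and DESeq2 called 1, fibromodulin. The groups were apart in 4 of the 84 genes (4.76%, against 5.69% of all genes tested), and 2 had an unadjusted p under 0.05 (2.38%, against 1.72%). Of the 84 log2 fold changes 36 were positive and 48 negative, with a median of -0.04.

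Genes that hold or release the latent ligand had a median log2 fold change of -0.01 (4 of 11 positive). Thrombospondin 1 (Thbs1), which activates latent TGF-beta, averaged 238 ± 83.0 CPM with the conduit and 233 ± 5.40 CPM in NC. Itgb8, a subunit of an integrin that activates it, stood at 432, 277 and 225 CPM with the conduit and at 506, 496 and 37.3 CPM in NC, where NC 3 was far below the rest. Itgav, the partner subunit, averaged 207 ± 81.0 CPM with the conduit and 208 ± 94.0 CPM in NC. Fibrillin 1 (Fbn1), the microfibril protein that anchors latent complexes, averaged 768 ± 156 CPM with the conduit and 738 ± 118 CPM in NC. Ltbp3 had a log2 fold change of -0.27 ± 0.27, Ltbp4 of -0.14 ± 0.24, Lrrc32, which holds latent TGF-beta at the cell surface, of -0.05 ± 0.30, and the protease Bmp1 of 0.18 ± 0.19, all with an edgeR adjusted p of 1.0. Ltbp3 had counts that were not whole in the deposited table, so its reads may be shared with another gene. Itgb6, the epithelial activating integrin, was too low to be tested.

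Among the 4 proteoglycans that bind TGF-beta, 3 log2 fold changes were negative. Fibromodulin (Fmod) stood at 41.0, 54.0 and 49.6 CPM with the conduit and at 102, 80.2 and 116 CPM in NC. All conduit libraries lay below all NC libraries, as in 2.88% of the genes tested, and the log2 fold change was -1.04 ± 0.18 (edgeR unadjusted p 0.00123, adjusted p 1.0). Biglycan (Bgn) averaged 840 ± 193 CPM with the conduit and 833 ± 333 CPM in NC.

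The other ligands of the superfamily had a median of -0.17 (3 of 9 positive). Inhba, the activin A subunit, stood at 10.5, 5.05 and 6.43 CPM with the conduit and at 4.05, 4.39 and 1.95 CPM in NC. All conduit libraries lay above all NC libraries, as in 2.81% of the genes tested, with a log2 fold change of 1.07 ± 0.42 (edgeR unadjusted p 0.0434, adjusted p 1.0). Gdf10 averaged 12.8 ± 3.83 CPM with the conduit and 17.6 ± 5.80 CPM in NC, and Gdf15 was too low to be tested. Secreted antagonists had a median of 0.09 (4 of 6 positive), with Chrd (chordin) at 0.25 ± 0.18 and Fstl1 at -0.15 ± 0.17 on the log2 scale.

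Other receptors had a median of -0.04 (4 of 9 positive). Eng (endoglin), the endothelial co-receptor, stood at 215, 252 and 202 CPM with the conduit and at 241, 137 and 312 CPM in NC, and was lowest in NC 2, as the endothelial markers were. Acvrl1, the endothelial type I receptor, averaged 79.1 ± 9.82 CPM with the conduit and 76.5 ± 23.8 CPM in NC. Bambi, a decoy receptor, averaged 10.6 ± 3.39 CPM with the conduit and 9.48 ± 6.82 CPM in NC. Acvr2a had a log2 fold change of -0.27 ± 0.16 and Acvr2b of 0.60 ± 0.66 (edgeR adjusted p 1.0 for both).

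Smads and their regulators had a median of -0.03 (7 of 16 positive). The signalling Smads differed between the groups by less than 1 SD. Smad2 averaged 46.2 ± 6.39 CPM with the conduit and 47.7 ± 8.36 CPM in NC, and Smad3 averaged 27.9 ± 4.40 CPM with the conduit and 25.3 ± 7.82 CPM in NC. Smad4, their common partner, averaged 107 ± 23.3 CPM with the conduit and 101 ± 26.0 CPM in NC. Smad6, the inhibitory Smad of the bone morphogenetic protein branch, stood at 4.51, 6.25 and 6.84 CPM with the conduit and at 7.68, 7.74 and 11.0 CPM in NC. Its groups were apart, with a log2 fold change of -0.58 ± 0.25 (edgeR unadjusted p 0.0601, adjusted p 1.0). The fourth pathway gene with groups apart, Map3k7, which encodes the kinase TAK1, was named after its values were seen. It averaged 60.2 ± 0.701 CPM with the conduit and 63.5 ± 3.17 CPM in NC, with a log2 fold change of only -0.08 ± 0.10 (edgeR unadjusted p 0.469). The corepressors Ski and Skil had log2 fold changes of -0.08 ± 0.15 and 0.06 ± 0.24, Tgif1 of 0.28 ± 0.23, the ubiquitin ligase Smurf2 of -0.14 ± 0.12 and the induced inhibitor Pmepa1 of -0.20 ± 0.32 (edgeR adjusted p 1.0 for each).

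Transcriptional targets of TGF-beta had a median of -0.11 (13 of 29 positive). Ccn2, connective tissue growth factor, averaged 106 ± 41.3 CPM with the conduit and 118 ± 18.7 CPM in NC. Tgfbi, a matrix protein named for its induction by TGF-beta, stood at 755, 445 and 884 CPM with the conduit and at 562, 767 and 571 CPM in NC. Its 3 highest libraries, conduit 1, conduit 3 and NC 2, were those of Tgfbr1 and Tgfbr3. Postn (periostin), a matrix protein of fibroblasts, was lowest in NC 2 and stood at 946, 1686 and 522 CPM with the conduit and at 1522, 371 and 2709 CPM in NC. Klf10, an early response gene of TGF-beta, averaged 61.3 ± 2.85 CPM with the conduit and 55.0 ± 3.52 CPM in NC, with a log2 fold change of 0.16 ± 0.11. Tagln, an actin-binding protein of smooth muscle and myofibroblasts, averaged 247 ± 101 CPM with the conduit and 299 ± 32.7 CPM in NC, and Id3 had a log2 fold change of -0.42 ± 0.23 (edgeR adjusted p 1.0 for these 3).

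**Figure D4:**
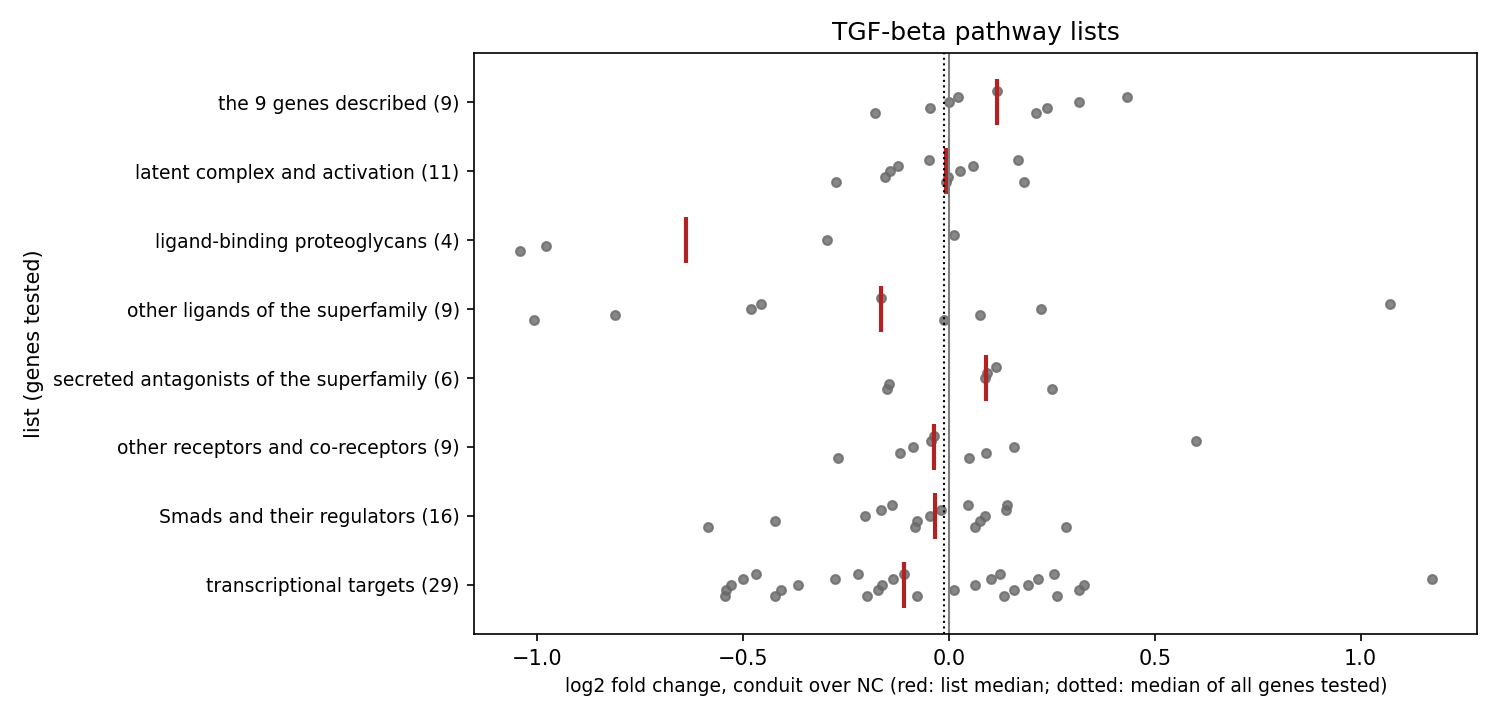
Log2 fold change of conduit over NC (horizontal axis) for each gene (grey points) of the 9 genes described and of 7 pathway lists, with the number of genes tested in parentheses; points are shifted up and down only for legibility. Red bars are list medians and the dotted line is the median of all genes tested, -0.01; the medians run between -0.64 for the 4 proteoglycans and 0.12 for the 9 genes.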

How the data were processed

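The authors deposited the expected counts (estimated counts) of each gene in 6 libraries as 1 table, without normalization as far as the column totals show. Per the labels' protocols, messenger RNA was captured on oligo(dT) beads and the NEBNext Ultra RNA kit was used. That kit keeps no strand information, so overlapping and antisense genes cannot be separated. Per the submitters' processing notes, the tools were Bowtie2 2.2.8, HISAT2, StringTie 1.3.1 and DESeq2, in no stated role. Build and annotation: not given in the sources used here. Columns named Con were taken as NC, and columns named Gel_HA-Mg as GDNF-Gel/HA-Mg, the group with that material.

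Counts were rounded (1898 to 2085 genes per library were not whole, while those of the 9 genes all were). After filterByExpr and TMM scaling, edgeR 4.0.16 under R 4.3.3 tested conduit over NC (two-sided quasi-likelihood test), and calls needed a p under 0.05 after Benjamini-Hochberg adjustment over all genes tested. SE was taken as log2 fold change over the square root of F, which makes the intervals approximate. Log2 CPM used a prior count of 2, and ratios a prior count of 0.5. Alternatives were RLE and upper quartile scaling, TMM without the 50 most abundant genes or without red cell, muscle and adipocyte markers, DESeq2 1.42.0, limma-voom (limma 3.58.1), no filter, a CPM of 1 or more in 3 libraries, a block for the replicate number, and the removal of each library in turn. No pair of libraries agreed within sampling noise (chi-square at least 86.4 per degree of freedom).

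The 9 genes and the lists were chosen with earlier results of these data known. Named pathway genes were a set chosen by symbol, plus the smallest unadjusted p in each direction of each list. Not every gene of that set is reported here by name. Genes like a ligand were the 3 with the highest correlation, where genes with a provisional symbol or an average log2 CPM under 2 were left out. Promoters come from RefSeq (build GRCr8), and all 9 symbols matched. Figures were drawn with matplotlib 3.10.9.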

Additional observations from a re-analysis of the deposited data

How the results depend on the processing

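None of the 9 genes was called by any of the 15 alternatives, and Tgfb1, Tgfb2, Ltbp1 and Smad7 kept their direction in all of them. Over all genes, edgeR called 0 in every alternative that used it, limma-voom called 0 and DESeq2 called 11. The labels do not say whether libraries of the same replicate number share anything. Between libraries of the same number, deviations from the group means correlated at 0.10, -0.72 and 0.06 for numbers 1, 2 and 3. Such correlations also carry differences in tissue content, so they cannot decide whether the numbers mark pairs. With the replicate block edgeR called 0 genes, and the log2 fold change was 0.0803 for Tgfb3 and -0.0014 for Tgfbr2, both with the sign changed. That of Ltbp2 was 0.7718 with the block (edgeR adjusted p 1.0) and 0.705 with limma-voom. Tgfb3 was at 0.0877 with limma-voom, and Tgfbr2 at -0.0100 with RLE scaling, -0.0100 with DESeq2 and -0.0009 with limma-voom. The cause of these changes of sign was not tested.

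Leaving out 1 library at a time, the log2 fold change ran between 0.1353 (without conduit 1) and 0.3515 (without conduit 3) for Tgfb1, between 0.0581 (without NC 2) and 0.4321 (without NC 1) for Tgfb2, between 0.1115 (without NC 2) and 0.4855 (without conduit 3) for Ltbp1 and between -0.2839 (without NC 2) and -0.0917 (without NC 3) for Smad7. Without NC 2, Tgfb1 was at 0.1433, and without conduit 2, Smad7 was at -0.0996. It ran between -0.46 and 0.77 for Tgfb3 (positive without conduit 1, conduit 3 or NC 1), between -0.0608 and 1.66 for Ltbp2 (negative without NC 3), between -0.12 and 0.37 for Tgfbr1 (negative without NC 3), between -0.0451 and 0.0403 for Tgfbr2 (negative without conduit 1 or NC 3) and between -0.0728 and 0.202 for Tgfbr3 (negative without conduit 1, conduit 3, NC 1 or NC 3). The difference in log2 ratio ran between -0.0662 and 0.0923 for Tgfb2 to Tgfb1, between -0.47 and 0.33 for Tgfb3 to Tgfb1, between -0.38 and 0.13 for Tgfbr2 to Tgfbr1, between -0.285 and 0.089 for Tgfbr3 to Tgfbr1 and between -0.54 and 1.19 for Ltbp2 to Ltbp1. With a prior count of 2 that of Tgfb2 to Tgfb1 was -1.63e-05. That of Smad7 to Tgfb1 stayed negative, between -0.55 and -0.31. With 3 libraries a group, the intervals of Tgfb3 and Ltbp2 do not exclude changes above 2-fold.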
